A study of Mus musculus with 40 samples.

Results

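Muscle of 40 young adult male C57BL/6J mice was divided here by how much slow troponin C RNA (Tnnc1) each piece of tissue held. The arrays were chosen by their measured Tnnc1 intensity: within each of 4 diet groups the 10 arrays, 1 per mouse, were ranked by the only Tnnc1 probe. The upper 5 arrays of each group were called slow-fibre-rich and the lower 5 slow-fibre-poor, which gave 20 rich and 20 poor arrays of 40 in all. Group names give the diet of the dam and then that of the son after weaning, where LF is low fat and HF is high fat. Both ate LF in LF_LF, only the son ate HF in LF_HF, only the dam ate HF in HF_LF, and both ate HF in HF_HF. All mice shared strain, sex, age and tissue, and none carried an altered allele. The tissue is labelled skeletal muscle and, per the study's methods, came from the thigh of fasted mice. The sources used here do not say which of the thigh's muscles was taken.

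Skeletal muscle is built from fibres that contract slowly or fast, and each kind carries its own form of most contractile proteins. Slow fibres use slow troponins (Tnnc1, Tnni1, Tnnt1), a slow tropomyosin (Tpm3), the myosin heavy chain Myh7 with its light chains Myl2 and Myl3, and the calcium pump Atp2a2, most of which the heart uses as well. Fast fibres use Tnnc2, Tnni2, Tnnt3, the heavy chains Myh1 and Myh4 and the pump Atp2a1. Slow fibres are rich in mitochondria and burn fat, whereas the fastest fibres rely on glycolysis, and the muscles of a mouse thigh are mostly fast.

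The promoters of 4 of the slow genes with large differences (below) are printed to show what sequence lies ahead of genes that moved together. They come from RefSeq on GRCm38.p6 and span the 250 bases before the first start site listed, at Tnnt1 chr7:4515976-4516225 (- strand), Tnni1 chr1:135799171-135799420 (+ strand), Myl2 chr5:122092474-122092723 (+ strand) and Myl3 chr9:110763428-110763677 (+ strand). Capitals mark matches on either strand to CATTCC (the MCAT box bound by TEAD factors) or CANNTG (the E-box bound by MyoD and its relatives).
Tnnt1: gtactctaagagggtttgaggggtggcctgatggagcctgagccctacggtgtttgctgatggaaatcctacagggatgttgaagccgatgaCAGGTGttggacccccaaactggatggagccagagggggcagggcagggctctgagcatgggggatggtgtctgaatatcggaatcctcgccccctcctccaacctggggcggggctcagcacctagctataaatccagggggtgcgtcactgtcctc
Tnni1: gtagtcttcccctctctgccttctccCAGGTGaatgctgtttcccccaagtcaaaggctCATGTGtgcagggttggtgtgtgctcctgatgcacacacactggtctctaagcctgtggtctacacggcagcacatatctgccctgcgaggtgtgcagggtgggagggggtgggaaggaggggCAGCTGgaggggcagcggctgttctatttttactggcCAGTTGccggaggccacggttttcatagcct
Myl2: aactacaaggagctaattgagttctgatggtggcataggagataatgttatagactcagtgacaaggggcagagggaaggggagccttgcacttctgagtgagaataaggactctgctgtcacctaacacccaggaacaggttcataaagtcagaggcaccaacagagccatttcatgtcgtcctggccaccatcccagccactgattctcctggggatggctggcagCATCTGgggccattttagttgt
Myl3: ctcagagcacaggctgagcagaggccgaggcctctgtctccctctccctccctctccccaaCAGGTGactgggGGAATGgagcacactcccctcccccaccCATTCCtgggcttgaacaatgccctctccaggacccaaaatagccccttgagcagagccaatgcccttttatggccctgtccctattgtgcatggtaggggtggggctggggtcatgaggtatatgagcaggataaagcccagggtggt
Each of these promoters held at least 1 E-box, and Tnni1 held 4. Myl3 alone among them held MCAT boxes, 2 of them beside its E-box, and none held the AAGGTCA site of oestrogen-related receptors or the MEF2 site. Of the 53 genes with a probe called higher in rich arrays, 47 had a promoter in the table. CATTCC was found in 11 of these 47 promoters (23.4%), against 10.6% of 7075 tested genes and 12.6% of all 32851 RefSeq promoters of that length. CANNTG was found in 78.7% of the 47, 57.4% of tested genes and 66.2% of all promoters. The MEF2 site was found in 2.13%, 0.523% and 0.508%, and AAGGTCA in 4.26%, 2.88% and 4.08%. These are matches of letters and describe the windows only.

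Tnnc1 intensity, on the linear scale that the authors normalised over the 40 arrays, ran from 314.6 to 12698.9, a range of 40.4-fold among genetically identical mice. It ran from 495.0 to 10926.9 in LF_LF with a median of 1959, and from 2046.3 to 12698.9 in LF_HF with a median of 7349. It ran from 314.6 to 12215.8 in HF_LF with a median of 2509, and from 666.1 to 9143.6 in HF_HF with a median of 3527. Ranking was done within the groups, so rich and poor arrays of different groups overlapped, and the highest poor array of LF_HF (7174.8) lay above most rich arrays of the other groups. At the border the 5th array had 2361.6 and the 6th 1555.7 in LF_LF, 7523.5 and 7174.8 in LF_HF, 2762.2 and 2256.4 in HF_LF, and 3978.2 and 3075.0 in HF_HF. The neighbours at the border of LF_HF thus differed by 1.05-fold, and those of the other groups by 1.22-fold to 1.52-fold. These Tnnc1 values made the division, are given as a description and are not tested.

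**Figure D1:**
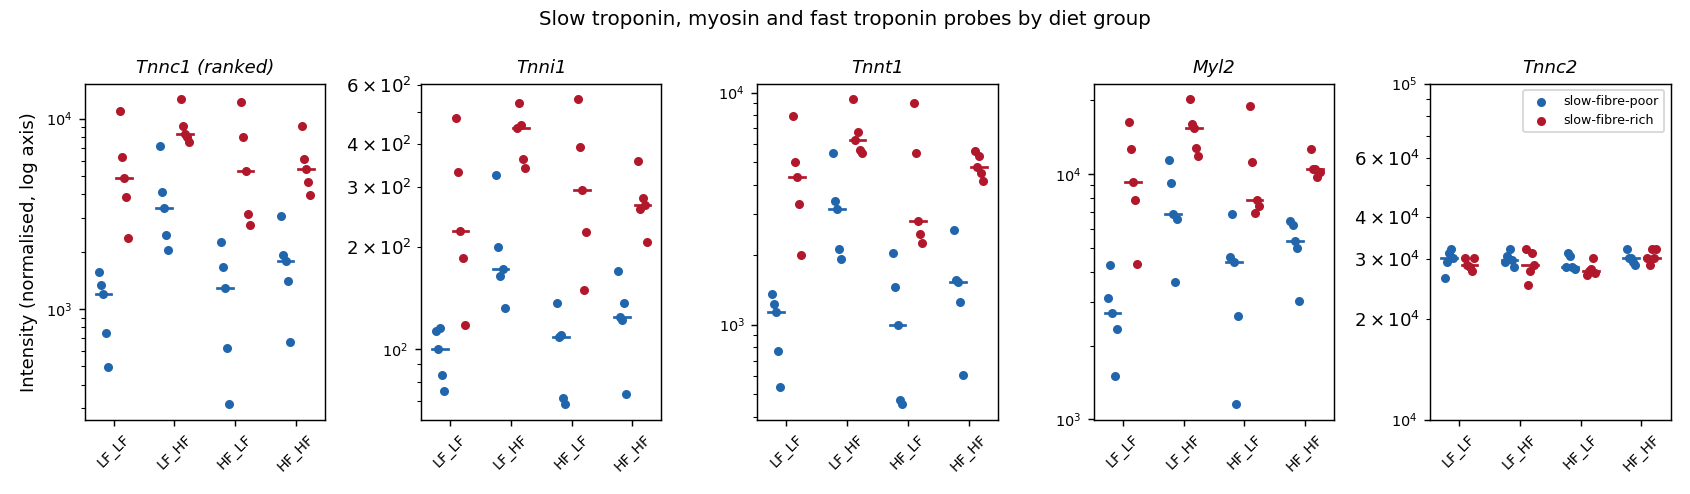
Intensity (linear scale of the deposited values on a log axis) of Tnnc1, Tnni1, Tnnt1, Myl2 and Tnnc2 in each array of the 4 diet groups, with slow-fibre-poor arrays in blue, slow-fibre-rich arrays in red and a bar at each median. Red and blue points do not overlap within any diet group for the slow genes, and do overlap for Tnnc2, which stays between 25164.9 and 32250.5.

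The 3 other slow-fibre markers named with Tnnc1 followed its order by their brightest probes. They are described without a p, although those of their probes that were called are counted among the calls below. Tnni1, the slow troponin I, had 117.6 to 544.7 in rich arrays (median 312.7) and 68.6 to 324.0 in poor arrays (median 118.0), a log2 difference of 1.31 ± 0.14 (SE, 20 against 20, diet group in the fit). Ranked by Tnni1 in place of Tnnc1, 40 of 40 arrays fell on the same side, and rich and poor arrays did not overlap in any of the 4 diet groups. Myh7, the slow myosin heavy chain, had 118.0 to 486.0 in rich arrays (median 229.0) and 70.1 to 228.1 in poor arrays (median 94.2), a log2 difference of 1.14 ± 0.13, with 38 of 40 arrays on the same side. Tpm3, the slow tropomyosin, had 218.5 to 1609.9 in rich arrays (median 515.4) and 79.9 to 592.1 in poor arrays (median 178.8), a log2 difference of 1.51 ± 0.18, with 36 of 40 arrays on the same side. Further Tpm3 probes differed by 1.41 and 1.34, but another did not move, at 0.02 ± 0.07 (median 226.0 in rich and 214.8 in poor arrays). By their brightest probes the markers therefore bore the label of the division out in all 4 groups, with Tpm3 the least closely tied to the ranks. The tissue is bulk, so fewer slow fibres and less slow RNA per fibre cannot be told apart.

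Beyond these markers, most of the largest differences were in contractile, calcium-handling and Z-disc genes, which were higher in slow-fibre-rich muscle. Many genes of other kinds were also called higher, mostly by smaller amounts, and few genes were called lower. With Tnnc1 left out, 63 of 12466 probes were called higher (0.505%) and 4 lower (0.0321%) at an adjusted p below 0.05 (limma, Benjamini-Hochberg). The lower calls were more numerous under some other settings, with a split of 190 higher and 69 lower with array weights, 178 and 39 with the Tnnc1 level in place of 2 classes, and 85 and 26 without 3 arrays high in immune cell markers (below). The calls of the reported fit covered 57 named genes (53 higher and 4 lower), and 5 of the probes belonged to Myh7, Tnni1 and Tpm3. A call says that a probe varied together with Tnnc1 between mice of the same diet group, since Tnnc1 of the same arrays made the division. All 13 probes that differed by more than 1 on the log2 scale were called, and they belonged to 9 genes, while the median of the called higher probes was 0.34 and that of all probes was -0.01. Rich and poor arrays did not overlap in any diet group for 4 probes (0.0321% of those tested), which were Tnnt1, Tnni1, Myl2 and 1 of the Atp2a2 probes, and 0 probes were lower in rich arrays in that way.

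Among the thin-filament genes, Tnnt1 differed most of all probes tested. Tnnt1 encodes the slow troponin T, which anchors the troponin complex to tropomyosin. In LF_LF the rich arrays had Tnnt1 intensities of 7937.5, 4998.1, 4342.0, 3303.9 and 2002.3, and the poor arrays had 1351.1, 1220.7, 1133.5, 766.5 and 537.8. In LF_HF the rich arrays had 9385.7, 6739.6, 6252.2, 5631.4 and 5511.6, and the poor arrays had 5487.0, 3419.0, 3139.2, 2126.6 and 1921.2. All rich arrays lay above all poor arrays in both groups, although the closest pair of LF_HF was nearly level. In HF_LF the rich arrays had 9055.0, 5462.9, 2794.8, 2446.5 and 2253.2, and the poor arrays had 2043.5, 1449.3, 997.3, 473.3 and 452.9. In HF_HF the rich arrays had 5604.4, 5300.1, 4786.6, 4507.5 and 4161.5, and the poor arrays had 2566.3, 1557.6, 1522.5, 1252.8 and 605.2. Tnnt1 thus separated the arrays in every diet group, with 36 of 40 arrays at exactly the rank they held for Tnnc1. Its log2 difference was 1.78 ± 0.20 (3.44-fold, adjusted p = 2.73e-07).

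Of the thick-filament genes, both slow myosin light chains stood with the heavy chain. Myl2, the regulatory light chain, had 4306.8 to 20251.1 in rich arrays (median 10881.7) and 1151.3 to 11448.3 in poor arrays (median 4503.6), and did not overlap within any diet group. Its log2 difference was 1.38 ± 0.18 (adjusted p = 1.77e-06), and 40 of 40 arrays fell on the same side as by Tnnc1. Myl3, the essential light chain, had 4223.9 to 19704.6 in rich arrays (median 10454.8) and 974.3 to 10723.5 in poor arrays (median 3978.0), overlapping in 1 of the 4 groups. Its log2 difference was 1.34 ± 0.19 (adjusted p = 1.88e-05). Myh6, best known as the fast heavy chain of the heart, had a log2 difference of 0.83 ± 0.10 (adjusted p = 1.09e-06), with 112.0 to 359.0 in rich and 90.1 to 233.2 in poor arrays. Myh6 and Myh7 lie next to each other on chromosome 14 and are close paralogs, and whether either probe also reads the other's RNA was not tested. Mybpc1, the slow myosin-binding protein C, had a log2 difference of 0.46 ± 0.16 that did not pass the test (adjusted p = 0.232).

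Calcium handling showed the same order. Atp2a2, the calcium pump of slow fibres and heart, had 2906.7 to 11124.1 in rich arrays (median 6415.3) and 1124.2 to 6985.6 in poor arrays (median 3028.9). Its brightest probe differed by 1.23 ± 0.14 on the log2 scale (adjusted p = 3.74e-07) and did not overlap in any group, and a further probe of Atp2a2 differed by 1.22 ± 0.15. Casq2, the calsequestrin that stores calcium in slow fibres and heart, was much dimmer and differed by 0.37 ± 0.06 (adjusted p = 4.06e-04), with 104.0 to 200.3 in rich and 90.3 to 178.6 in poor arrays. Sln, sarcolipin, which inhibits the pump, had a log2 difference of 0.73 ± 0.21 that missed the threshold (adjusted p = 0.128). Ift81, a ciliary transport gene that neighbours Atp2a2 on chromosome 5, was singled out after its values were seen, and its 3 probes differed by 0.29 to 0.34 with adjusted p between 1.44e-05 and 2.83e-04.

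Z-disc and stress-related genes formed a looser group. Csrp3, the muscle LIM protein of the Z-disc, had 801.5 to 4040.5 in rich arrays (median 2077.5) and 136.5 to 4148.0 in poor arrays (median 949.8), so that the highest array of all was a poor one. Its log2 difference was 1.09 ± 0.24 (adjusted p = 0.0139), and 32 of 40 arrays fell on the same side as by Tnnc1. Ankrd2, a stretch-responsive ankyrin protein, differed by 1.02 ± 0.19 (adjusted p = 0.00248, 32 of 40 arrays on the same side), and Myoz2, the slow-fibre calsarcin that binds calcineurin, by 0.95 ± 0.18 (adjusted p = 0.00248, 34 of 40). Hspb7, a small heat shock protein of heart and muscle, differed by 0.73 ± 0.14 (adjusted p = 0.00378). It was the 1 of 7 small heat shock genes called, against 0.541% of all genes called higher. Cryab stood at 0.24 (adjusted p = 0.183). Pdlim1, a PDZ-LIM protein of the cytoskeleton, differed by 0.61 ± 0.10 (adjusted p = 4.06e-04), and Fhl1, a LIM protein, by 0.61 ± 0.14 (adjusted p = 0.0264). Mb, myoglobin, and Car3, the carbonic anhydrase of slow fibres, did not pass the test, at 0.32 ± 0.12 (adjusted p = 0.304) and 0.08 ± 0.10 (adjusted p = 0.94).

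In all, 13 of 17 slow-fibre genes measured were called higher and 0 lower, with a median log2 difference of 1.02. Over the 8689 genes tested, 0.541% were called higher and 0.046% lower by their brightest probe, and the median was -0.005. Without Myh7, Tnni1 and Tpm3 these were 10 of 14 genes and a median of 0.84. The slow median was 1.30 within HF_LF, 1.25 within LF_LF, 0.95 within HF_HF and 0.51 within LF_HF, and the Tnnc1 ranks themselves spanned least in LF_HF, where the mean log2 difference of Tnnc1 was 1.37 against 1.83 to 2.45 elsewhere. Tnnt1, Tpm3, Myl2, Myl3, Tnni1 and Myh7 kept a difference above 1 in every diet group, whereas Csrp3, Ankrd2 and Hspb7 reached only 0.30, 0.34 and 0.16 in LF_HF. Fhl1 was not higher in the rich arrays of LF_HF, at -0.03 by its brightest probe and -0.08 by the other. By its brightest probe it reached 1.17 in HF_LF.

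**Figure D2:**
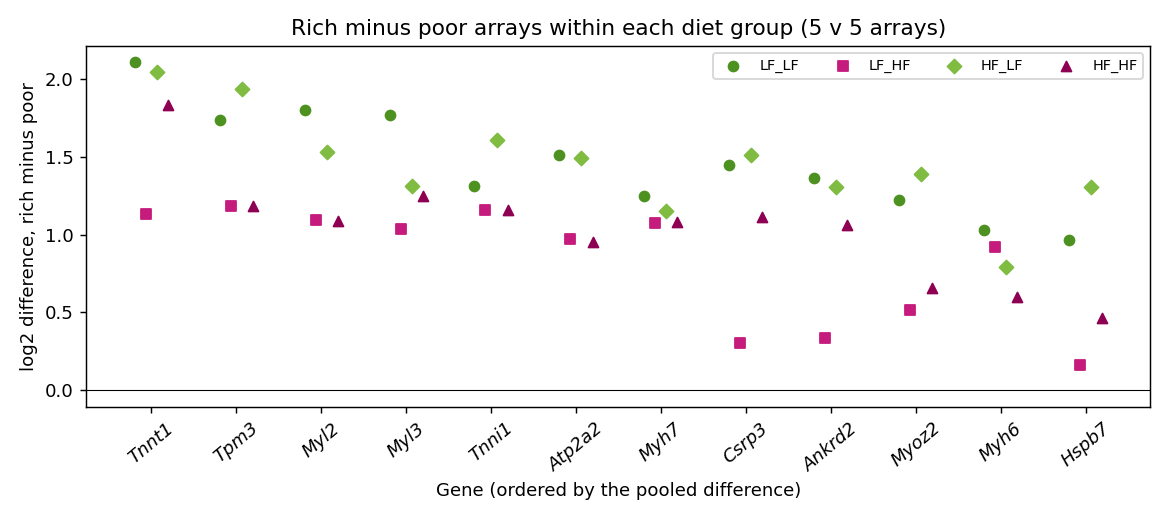
Log2 difference between slow-fibre-rich and slow-fibre-poor arrays (5 against 5) within each diet group for the 12 named genes with the largest differences. Tnni1 and Myh7 lie between 1.07 and 1.61 in all 4 groups, while Csrp3 ranges from 0.30 in LF_HF to 1.51 in HF_LF.

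The fast counterparts did not move in the opposite direction by an amount that passed the test. Of 19 fast-fibre genes measured, 0 were called by limma in either direction (4 had an unadjusted p below 0.05), and their median log2 difference was -0.03, with 15 of 19 below 0. Over all 8689 genes, each by its brightest probe, 9.22% had an unadjusted p below 0.05 and 54.1% were below 0. The 4 fast genes with such a p were all lower in rich arrays. Tmod4 stood at -0.13 ± 0.03 (adjusted p = 0.0686) and Cacng1 at -0.15 ± 0.05 (adjusted p = 0.304). Tpm1 and Tnnt3 stood at -0.10 ± 0.04 and -0.08 ± 0.03 (adjusted p = 0.441 and 0.515). Tnnc2, the fast troponin C, had 25164.9 to 32250.5 in rich arrays (median 28858.5) and 26358.0 to 32250.5 in poor arrays (median 29995.1), a log2 difference of -0.03 ± 0.03 (adjusted p = 0.831). Tnni2, the fast troponin I, stood at 0.02 ± 0.02 (adjusted p = 0.923). These probes sat at the top of the scale, where 32250.5 is the highest value of the whole table, which leaves little room above them. Myh4, the heavy chain of the fastest fibres, had 12343.6 to 28858.5 in rich and 14074.5 to 24533.6 in poor arrays, with a difference of -0.11 ± 0.08 (adjusted p = 0.804). Myh1, the 2X heavy chain, lay far below that ceiling, at 1503.2 to 5558.4 in rich and 670.7 to 5923.7 in poor arrays, with a difference of 0.19 ± 0.19 (adjusted p = 0.898), with values from -0.40 in HF_HF to 0.97 in HF_LF. Atp2a1, the fast calcium pump, stood at -0.02 ± 0.05 and Casq1, the fast calsequestrin, at -0.07 ± 0.07 (adjusted p = 0.972 and 0.901). The 2A heavy chain Myh2 was not analysed here. Sarcomere genes common to all fibres had no call among 8 (3 at an unadjusted p below 0.05), with Acta1 (skeletal actin) at 0.02 ± 0.06 and Ttn (titin) at 0.03 ± 0.04. They ran from -0.09 to 0.40, and 6 of the 8 were above 0, against 45.9% of all genes. The highest was Actn2 at 0.40 ± 0.11, which did not pass the test (adjusted p = 0.0865).

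**Figure D3:**
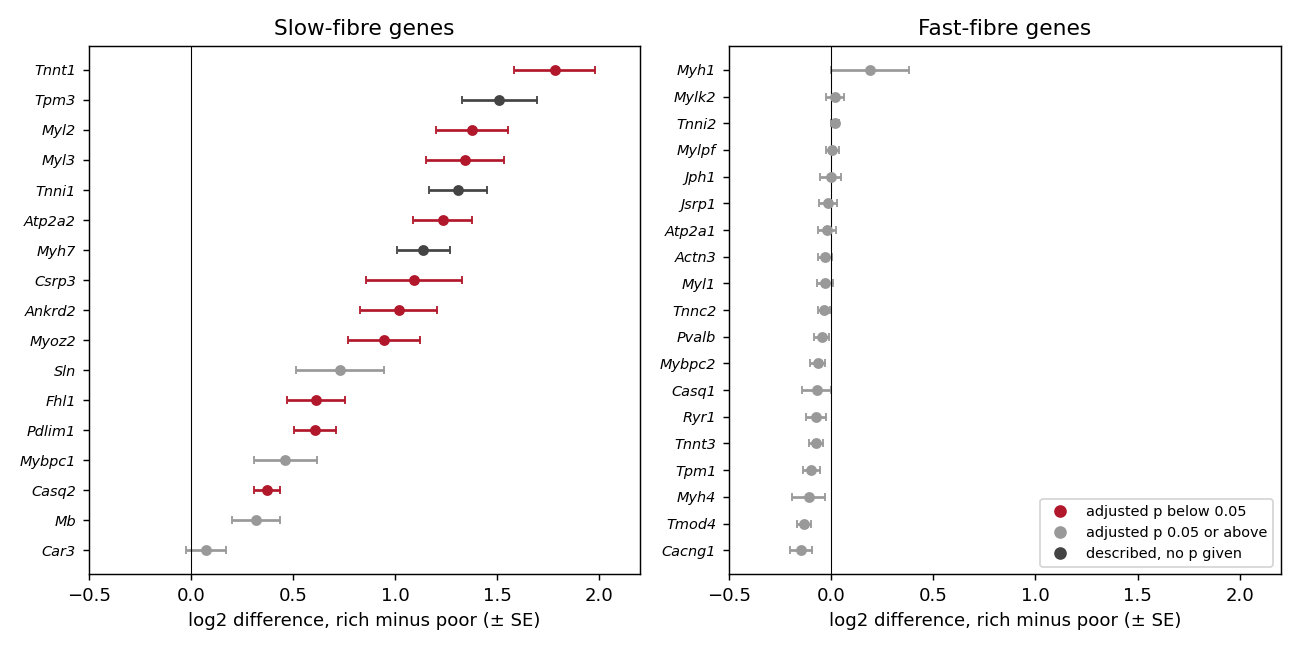
Log2 difference (rich minus poor, 20 against 20 arrays, ± SE) of each slow-fibre gene and each fast-fibre gene measured, in red where the adjusted p is below 0.05, grey where it is not, and dark for the 3 markers, for which no p is given. Slow-fibre genes run from 0.08 to 1.78 and fast-fibre genes from -0.15 to 0.19.

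Genes of fat use were mostly above 0, and most did not pass the test. Of 9 genes of fatty acid uptake and storage, 8 were above 0, 5 had an unadjusted p below 0.05 in limma and 1 was called. Over all genes 0.541% were called higher. The largest difference of the list, 0.49, did not pass. The called gene was Fabp3, the fatty acid carrier of heart and slow muscle, at 0.39 ± 0.09 (adjusted p = 0.0264). It had 6845.3 to 19704.6 in rich and 3419.0 to 15745.7 in poor arrays, which overlap widely. Plin5, which coats lipid droplets beside mitochondria, lay just outside the threshold at 0.38 (adjusted p = 0.0504), and Lpl, the lipase of the capillary wall, at 0.33 (adjusted p = 0.0937). White fat cells express Lpl as well, and the 5 white fat markers bright enough to test were all above 0 with a median of 0.27 and 0 called (0 at an unadjusted p below 0.05 in limma). Their part in these values was not tested. The 18 beta-oxidation genes had a median of 0.13 and 17 of them were above 0, yet 0 were called by their brightest probes (10 had an unadjusted p below 0.05). Over all genes 45.9% were above 0 and 9.22% had such a p. Cpt1b, which admits fatty acids to muscle mitochondria, stood at 0.13 ± 0.04 by its brightest probe (adjusted p = 0.127) and was called at 0.19 ± 0.04 by a dimmer one (adjusted p = 0.0149), and Cpt2, its partner on the inner membrane, stood at 0.08 ± 0.06 (adjusted p = 0.804).

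The mitochondrial machinery itself yielded no call. None was found among 16 citrate cycle (median 0.01), 33 complex I (median 0.01) or 36 complex III to V genes (median 0.03). Over all genes only 0.541% were called higher and 0.046% lower. In these lists 1, 3 and 4 genes had an unadjusted p below 0.05 in limma, against 9.22% of all genes. Above 0 were 10, 18 and 29 of them, against 45.9% of all genes, and the citrate cycle genes ran from -0.05 to 0.48. Citrate synthase (Cs) stood at -0.02 ± 0.04 and Idh3a, an isocitrate dehydrogenase subunit, at -0.05 ± 0.03. The complex I subunits Ndufa1 and Ndufa2 stood at 0.02 ± 0.03 and -0.01 ± 0.03, and Cyc1 and Uqcrb of complex III at 0.06 ± 0.04 and -0.05 ± 0.09. Of the ketone and lactate genes, Bdh1, which oxidises hydroxybutyrate, had a difference of 0.47 ± 0.13 that did not pass (adjusted p = 0.0944), and Oxct1, which activates ketone bodies, had 0.11 ± 0.06 (adjusted p = 0.636). Of 12 glycolysis genes 0 were called and the median was -0.05. Only 1 of the 12 was above 0, against 45.9% of all genes, and the lowest stood at -0.14. An unadjusted p below 0.05 in limma was found for 3 of the 12, against 9.22% of all genes. Hk2, the muscle hexokinase, stood at -0.01 ± 0.03. Pfkm, the muscle phosphofructokinase, stood at -0.03 ± 0.03 by its brightest probe and at -0.05 ± 0.06 and -0.09 ± 0.03 by dimmer ones. Of 9 glycogen genes 0 were called (0 at an unadjusted p below 0.05), with Pygm, the muscle glycogen phosphorylase, at -0.02 ± 0.06 and Phka1, a phosphorylase kinase subunit, at -0.11 ± 0.10.

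**Figure D4:**
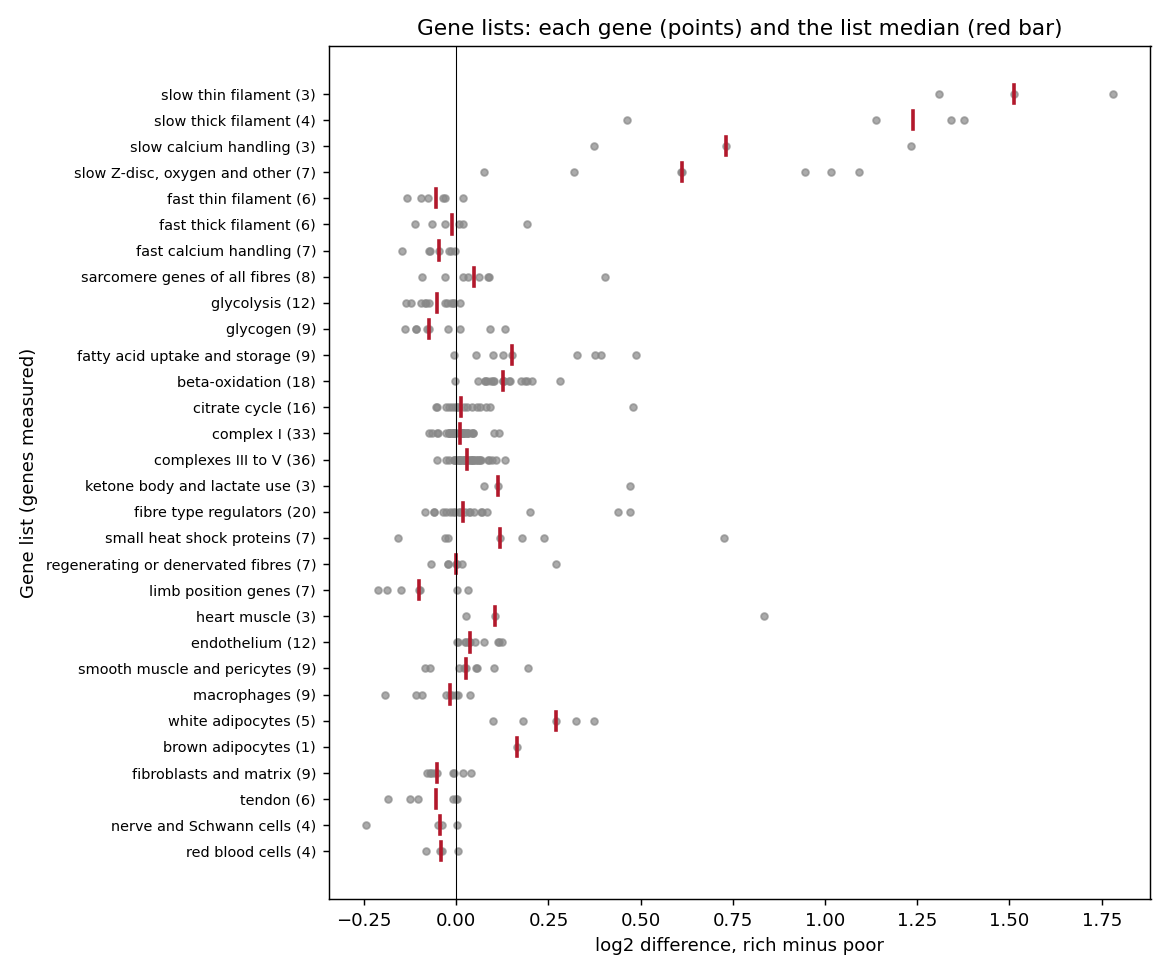
Log2 difference (rich minus poor, 20 against 20 arrays) of every measured gene of each list, as grey points, with the list median as a red bar. The 4 slow-fibre lists have medians from 0.61 to 1.51, and the other lists lie between -0.10 and 0.27.

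Of 20 regulators of fibre type measured, 1 was called higher, against 0.541% of all genes. Esrrb, an orphan nuclear receptor related to the oestrogen receptors, had 159.3 to 385.1 in rich arrays (median 272.0) and 85.2 to 280.3 in poor arrays (median 200.3), a log2 difference of 0.47 ± 0.10 (adjusted p = 0.0139). Its relative Esrra stood at 0.07 (adjusted p = 0.703), and Ppargc1a, the coactivator that drives mitochondrial genes, at 0.05 (adjusted p = 0.943). Vgll2, a TEAD cofactor of muscle, stood at 0.44 by its brightest probe (adjusted p = 0.0682) and was called at 0.45 by another (adjusted p = 0.0228). Further genes called higher, picked after their values were seen, were Lmcd1, a LIM protein, at 0.51 (adjusted p = 0.0485), Smtnl1, a smoothelin-like protein, at 0.46 (adjusted p = 0.0286), and Pank1, which starts the synthesis of coenzyme A, at 0.37 (adjusted p = 0.0264). Tpm2, the beta tropomyosin, differed by 0.32 by 1 probe (adjusted p = 0.0264) whereas its brightest stood at 0.16 (adjusted p = 0.181).

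The 4 genes called lower in slow-fibre-rich muscle are not contractile and differed little. Aimp2, a scaffold of the tRNA synthetase complex, had 1164.7 to 2055.0 in rich arrays (median 1714.5) and 1575.7 to 2684.4 in poor arrays (median 1982.4), a log2 difference of -0.27 ± 0.06 (adjusted p = 0.0286). Its other probe was not called, at -0.24 ± 0.07 (adjusted p = 0.163). Aurka, the mitotic kinase Aurora A, differed by -0.23 ± 0.06 (adjusted p = 0.0379), but by 0.08 in the opposite direction within LF_HF. Nans, the sialic acid synthase, differed by -0.15 ± 0.04 (adjusted p = 0.0379), and Ube2b, a ubiquitin-conjugating enzyme, by -0.13 ± 0.03 (adjusted p = 0.017). A much dimmer Ube2b probe was not called, at -0.07 ± 0.12 (adjusted p = 0.968). When each array was left out in turn, Ube2b was called in 40 of 40 fits, Aimp2 in 30, Aurka in 19 and Nans in 16, whereas Tnnt1, Myl2, Myl3, Atp2a2, Csrp3, Ankrd2 and Myoz2 were called in all 40. With cage as a fixed factor, and without cage 12 or cage 23, 0 probes were called lower.

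Other cell types were examined because a thigh sample can carry fat, tendon, nerve, vessels and blood. Of 11 lists of such markers, 10 had a gene bright enough to test (lymphocytes had none of 9). Called genes were found in 1, the heart list, where Myh6 was the only one of 3 tested genes to pass. Over all genes 0.541% were called higher. The defining heart markers Nppa, Nppb, Myl7, Tnni3 and Ryr2 stayed between 56.1 and 79.1 in all 40 arrays, near the array median of 75.7. White fat markers had the highest median of these lists, 0.27, with Adipoq (adiponectin) at 0.33 ± 0.27 and Lep (leptin) at 0.37 ± 0.24 (adjusted p = 0.853 and 0.747), and their summed score, the mean log2 deviation of the list, ran from -0.42 to 1.13 in rich and from -0.50 to 1.20 in poor arrays. Genes of regenerating or denervated fibres had 0 of 7 called by their brightest probes (1 at an unadjusted p below 0.05, Cdkn1a, the cell cycle inhibitor p21, at 0.27 with adjusted p = 0.0787, of which a dimmer probe was called at 0.21 with adjusted p = 0.0264). Myh8, the perinatal heavy chain, was at -0.02 ± 0.06 and Chrna1, the acetylcholine receptor, at -0.02 ± 0.05. Limb position genes, which differ along the limb, had a median of -0.10 and 0 of 7 called. Of them 4 had an unadjusted p below 0.05, against 9.22% of all genes, and these were Hoxd10 at -0.21 ± 0.08, Hoxd8 at -0.19 ± 0.06, Hoxd9 at -0.15 ± 0.06 and Hoxc10 at -0.10 ± 0.05 (adjusted p from 0.232 to 0.552). Lbx1 was at -0.10 ± 0.05 and Hoxa9 at 0.03 ± 0.04. Lymphocyte markers stood apart in a rich array (LF_LF replicate 2, score 1.05) and a poor array (LF_LF replicate 5, score 1.29), and macrophage markers in a poor array (LF_HF replicate 6, score 1.27). Without these 3 arrays 111 probes were called, including 66 of the 67.

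For the remaining cell types, 2 genes each are given with their log2 differences. Pecam1 and Cdh5, of endothelium, stood at 0.05 ± 0.06 and 0.04 ± 0.04, and Acta2 and Myh11, of smooth muscle, at 0.06 ± 0.07 and 0.10 ± 0.04. In their lists, 12 of 12 endothelial and 7 of 9 smooth muscle genes were above 0, against 45.9% of all genes. An unadjusted p below 0.05 in limma was found for 3 and 2 of them, against 9.22% of all genes, and 0 were called. Of 9 macrophage and 9 fibroblast genes, 2 and 2 were above 0 and 0 had such a p. Cd14 and Adgre1, of macrophages, stood at -0.02 ± 0.05 and -0.11 ± 0.11, and Pdgfra and Dcn, of fibroblasts, at -0.01 ± 0.05 and -0.07 ± 0.05. None of these passed the test, nor did the tendon regulators Scx and Mkx at -0.01 ± 0.07 and 0.00 ± 0.05, the myelin genes Mbp and Pmp22 at -0.24 ± 0.20 and -0.05 ± 0.13, or the globins Hba-a1 and Hbb-bt at -0.08 ± 0.12 and -0.04 ± 0.12. Cidea, a lipid droplet protein of brown fat, had 0.17 ± 0.17. A part of these cells in the differences of the slow genes was not tested beyond these values.

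The division lay across diet, cage and a grouping of the arrays by their dim probes, whose origin the labels do not give. Of 12 cages, 7 held both rich and poor arrays, and the estimated correlation within a cage was -0.01. With cage as a fixed factor, 19 probes were called, all of them among the 67, and the slow-fibre median was 0.96. The dim probes split the arrays into clusters of 17 and 23 (8 and 12 of them rich), and the slow-fibre median was 1.02 in the smaller cluster and 0.81 in the larger, where 0 and 10 probes were called. Whether the division differed between the diet groups was tested as an interaction over 12466 probes. None was called (0%), the smallest adjusted p was 0.476, and 1025 probes (8.22%) had an unadjusted p below 0.05. The smallest p-values belonged to Oxt (oxytocin), Atp10a (a lipid flippase) and Ang (angiogenin), and Oxt, between 64.8 and 87.5 in all arrays, lay near background.

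Slow-fibre-rich and slow-fibre-poor mice had no body measure that passed the test (2-sided permutation tests within diet group, adjusted over 5 measures). The later body weight, which the labels file as a weaning weight, was 27.3 ± 3.74 g (SD, n = 20) in rich and 27.3 ± 3.42 g in poor mice, a difference of 0.01 ± 0.51 g (SE, p = 0.99). Fasting glucose was 200.2 ± 38.5 against 204.9 ± 31.1 mg/dl, a difference of -4.7 ± 10.9 (p = 0.665), while the medians differed by -18.25 mg/dl (p = 0.134, adjusted p = 0.669). Weight at 3 weeks differed by -0.20 ± 0.31 g and length by -0.05 ± 0.58 mm, where 18 rich and 20 poor mice had a length. The adjusted p of all 5 differences of means was 0.99.

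Because mean Tnnc1 levels were unequal between the diet groups, each diet comparison was fitted with and without the Tnnc1 level over 12460 probes, without those of the 4 markers. Sons fed HF after an LF dam had the higher Tnnc1, by 1.34 on the log2 scale over LF_LF. For LF_HF against LF_LF, 444 probes (3.56%) were called without and 164 (1.32%) with the Tnnc1 level, 151 of them in both fits. For HF_HF against HF_LF, where Tnnc1 differed by 0.37, the calls were 85 (0.682%) and 95 (0.762%), 81 of them in both. For HF_HF against LF_HF, where Tnnc1 differed by -0.90, the calls were 5 (0.0401%) and 13 (0.104%), all 5 being kept. For HF_LF against LF_LF, where Tnnc1 differed by 0.06, the same 9 probes (0.0722%) were called in both fits. The pairs of comparisons share groups of mice, and a Tnnc1 level that diet itself changes and one that differs by the piece of muscle taken cannot be told apart here.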

How the data were processed

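Thigh muscle RNA of 40 mice was hybridised to Illumina MouseRef-8 beadchips. BeadStudio is named in the submitters' processing notes (version not given in the sources used here). After quantile normalisation over the 40 arrays the authors deposited probe intensities on a linear scale (47.2 to 32250.5, median 75.7), with no background subtracted to 0, which compresses the folds of dim probes. The number of arrays limits the precision. The groups came from the diet labels, and replicate numbers only name animals.

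Of 25697 probes, those above their array's median in at least 20 of 40 arrays were kept (12467 probes, 8690 genes). Symbols came from the platform annotation, checked against the GRCm38.p6 gene table. Log2 intensities without an offset were fitted with limma 3.58.1 in R 4.3.3 (lmFit, eBayes with an intensity trend), with diet group and the rich or poor class as factors. P-values are two-sided and adjusted by Benjamini-Hochberg over 12466 probes. Animals are 1 array each, and animals of 1 cage were treated as independent. Body measures were permuted 100000 times within diet group (numpy 2.4.6). The fit was tested on simulated data.

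The division, the 32 gene lists and the tests were chosen with earlier results of these data known. Genes named are Myh7, Tnni1 and Tpm3 (described only), the 12 largest called differences in each direction, up to 4 called genes of each list or its first 2 measured genes, the 3 smallest interaction p-values, and Tnnc2 and Tnni2; others are named as examples of their list or as picked after their values were seen. A gene with several probes is represented by its brightest. Alternatives covered the probe filter, the offset, the background, the variance model, array weights, cage, body weight, dim-probe clusters, arrays high in immune markers, and the marker and border of the division. Each array or cage was also left out in turn, and each diet group was fitted alone.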

Additional observations from a re-analysis of the deposited data

Results flagged for a closer look

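Each named gene and each score of other cell types was examined for a single array far from the other 9 of its diet group. The measure was Dixon's ratio of the gap to the range, with a critical value of 0.466. For genes the ratio was taken on log2 intensities, while the intensities printed below are on the linear scale. Of 308 sets of 10 arrays, 23 held such an array, and chance alone gives about 5% of sets.

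Several slow-fibre genes had an isolated low array among the poor ones. Atp2a2 was at 1560.7 in HF_HF replicate 8 (ratio 0.564), below 3874.3 to 7821.5 in the other 9 arrays. HF_LF replicate 7 was low for Ankrd2 at 124.5 against at least 508.8 (ratio 0.531) and for Myoz2 at 190.8 against at least 805.3 (ratio 0.49). LF_HF replicate 3 was low for Myoz2 at 1086.5 (ratio 0.479). Esrrb was high in the rich array HF_HF replicate 4, at 385.1 against at most 282.8 (ratio 0.491).

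HF_LF replicate 2, a rich array, was low for 2 bright muscle genes, Atp2a1 at 16781.2 against at least 25164.9 (ratio 0.671) and Acta1 at 15583.5 against at least 23328.1 (ratio 0.577). Tnni2 was highest in LF_LF replicate 3 (32250.5, ratio 0.503). Phka1 reached 2158.2 in HF_LF replicate 6 against at most 1198.1 (ratio 0.664), Ndufa2 7614.9 in HF_LF replicate 9 (ratio 0.468), and Cyc1 was low at 2894.0 in LF_HF replicate 5 (ratio 0.475).

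LF_HF replicate 6, a poor array, stood apart in macrophage markers (score 1.27, ratio 0.708), with Cd14 at 145.2 (ratio 0.599) and Adgre1 at 387.9 (ratio 0.603), and in fibroblast markers (score 0.698, ratio 0.51). Other isolated arrays were HF_HF replicate 1 for Pecam1 at 507.0 (ratio 0.553) and for a low tendon score of -0.645 (ratio 0.471), and LF_LF replicate 2 for Dcn at 8683.8 (ratio 0.478) and a low tendon score of -0.659 (ratio 0.467). LF_HF held isolated arrays for Lep at 323.9 in replicate 2 (ratio 0.472), Scx at 197.6 in replicate 4 (ratio 0.474) and the endothelial score at -0.159 in replicate 5 (ratio 0.601). The heart score was 0.101 in HF_LF replicate 10 (ratio 0.52), which was also the array with the highest Tnnc1 of its group.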

How the results depend on the processing

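The slow-fibre genes kept a median log2 difference above 0 under every alternative run (1.02 as reported, 0.89 to 1.10 with each array left out). It was 1.45 for the 3 highest against the 3 lowest arrays of each group, 0.51 within LF_HF and 0.50 per log2 unit of Tnnc1. The number of called probes (67, of which 63 higher and 4 lower) moved more. It was 259 (190 and 69) with array weights, 217 (178 and 39) with the Tnnc1 level in place of 2 classes, 111 (85 and 26) without the 3 arrays high in immune markers, 19 (19 and 0) with cage as a fixed factor, and 32 and 25 when Myh7 and Tpm3 made the division. Within the smaller dim-probe cluster it was 0 and within the larger 10. Within single diet groups of 10 mice it was 1 (HF_HF), 2 (HF_LF), 0 (LF_HF) and 1 (LF_LF), where 1405, 1096, 359 and 903 probes had an unadjusted p below 0.05 in limma. With each array left out it ran from 48 to 110 (1 to 17 lower), with 102 without LF_LF replicate 5 and 110 without HF_HF replicate 6. Leaving out a cage gave 29 (cage 4), 28 (cage 8), 101 (cage 9), 40 (cage 12), 38 (cage 21) and 28 (cage 23). The cause of these shifts was not tested. Of 17 named genes that were called, 17 stayed called with weighted arrays, with a random cage effect and with body weight in the fit, 10 with the division made by Myh7 or Tpm3, and 8 with cage fixed. Aurka reversed within LF_HF (0.0767). The interaction gave 0 calls in all 3 fits. No paired analysis was possible because replicate numbers only name animals; cage is the only block the labels give. Dim probes near background understate folds, and the brightest fast-fibre probes sit at the top of the scale.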
